A study of Homo sapiens with 2 samples.

Results

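The genes described here encode subunits of the ATP-dependent chromatin remodelling complexes and their relatives. They were taken by symbol from a RefSeq table of GRCh38.p14: protein-coding genes whose symbol begins with SMARC, ARID plus a digit or INO80, the CHD genes from CHD1 to CHD9, and EP400, SRCAP, BPTF, BRD7, BRD9, PBRM1, HELLS and ATRX. This gave 45 of 19974 protein-coding genes on chromosomes 1 to 22 and X. By the complex they are known for, 15 were placed in SWI/SNF, 3 in ISWI, 9 in CHD and 7 in INO80 and its relatives. The remaining members were 4 other ATPases of the same superfamily (HELLS, ATRX, SMARCAD1 and SMARCAL1) and 7 other ARID genes, which share a DNA-binding domain with ARID1A but are not known as remodeller subunits.

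The series mapped KDM1B (LSD2), a flavin-dependent histone lysine demethylase, over the genome of MDA-MB-231, a long-used human cell line of triple-negative breast cancer. Both libraries came from cells in which the retroviral vector pOZ supplied KDM1B fused to a tag of 3 FLAG copies: 1 library from chromatin precipitated with the FLAG antibody M2 and 1 input library. The only measurement is a peak list of ChIP over input, and its peaks describe the tagged protein supplied by the vector in 1 cell line. Without replicates the values carry no replicate error and no test of ChIP against input, and the read depth is unknown because the list holds log2 ratios without counts.

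Remodelling complexes use the energy of ATP to slide, eject or exchange nucleosomes, and each is built around an ATPase of the SNF2 superfamily. SWI/SNF complexes open promoters and enhancers, ISWI complexes space nucleosomes, CHD proteins include the ATPases of the repressive NuRD complex, and INO80, SRCAP and EP400 complexes exchange histone variants. Several subunits exist as alternative paralogs, and SWI/SNF genes are frequently mutated in tumours.

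A peak was counted for a gene when its midpoint lay inside the gene span or at most 5 kb outside. By this count 42 of the 45 members had a peak (93.3%, exact Clopper-Pearson 95% interval 81.7 to 98.6%, counting error only), against 67.5% of all protein-coding genes. The members held 608 peaks, with a median of 9 per gene and a range from 0 to 71, against a median of 2 over all protein-coding genes. They are long genes, with a median span of 75.0 kb against 24.2 kb, and a long gene has more room for a peak. Of the 16 members of 100 kb or more, all had a peak, against 76.7% of protein-coding genes of that length. Among the 18 members of 30 to 100 kb all had one too, against 77.4%. From 10 to 30 kb it was 6 of 9 against 69.4%, and both members under 10 kb had one against 50.6%.

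The share of the span lying under peaks separated the members further than the presence of a peak. The median member had 13.1% of its span covered, against 1.52% over all protein-coding genes, and the range ran from 0 to 98.8%. At least 25% of the span was covered in 17 of 45 members, against 16.8% of protein-coding genes, and at least 50% in 10 of 45, against 7.29%. Long genes are seldom covered so far: of protein-coding genes of 100 kb or more 3.79% reached 25% of the span, while 6 of the 16 members of that length did. A peak of 5 kb or wider lay over 9 of the 45 members, against 4.17% of protein-coding genes. That share is over genes of all lengths, and a longer gene has more room for such a peak. All 9 were genes of the SWI/SNF, CHD and INO80 groups. With only the stronger part of the list, peaks at or above its median log2 ratio of 2.99, 9 members reached 25%, against 7.31% of protein-coding genes.

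**Figure D1:**
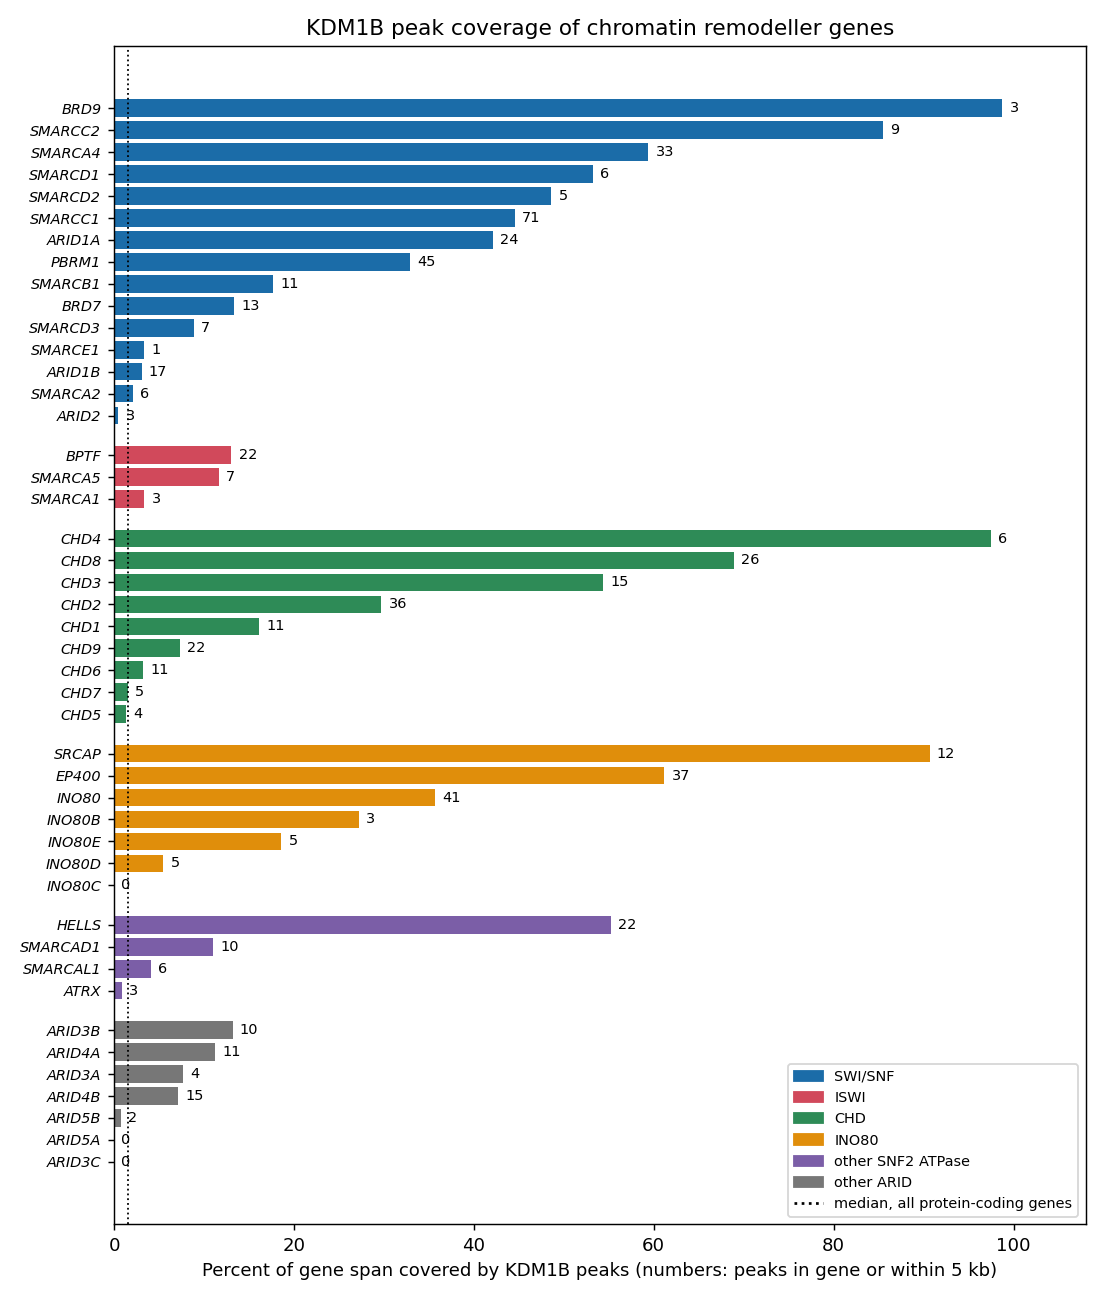
Percent of each member's span covered by KDM1B peaks (bars, linear axis from 0), by group, with the number of peaks in the gene or within 5 kb printed at the bar and the median of all protein-coding genes (1.52%) as a dotted line. BRD9, CHD4 and SRCAP lie above 90%, while INO80C, ARID5A and ARID3C have no peak.

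The 15 SWI/SNF genes all carried a peak, and their coverage ran from 98.8% down to 0.481% with a median of 32.9%. BRD9, the bromodomain subunit of the non-canonical BAF complex, stood at the top. A single peak of 28.3 kb (chr5:863130-891457, hg38, log2 ratio 3.86) lay over nearly the whole gene, from 611 bp beyond its lower end to 1344 bp short of its upper end, where transcription starts. A second peak covered the start itself (chr5:891819-893906, log2 ratio 2.59) and also overlapped the neighbouring gene TRIP13. BRD7, a bromodomain subunit of the PBAF form, had 13 peaks but only 13.3% of its span covered, and 6 of its peaks also lay within 5 kb of another coding gene.

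The scaffold paralogs SMARCC1 and SMARCC2 were both densely covered, in different forms. SMARCC1 held 71 peaks, the most of any member, over 44.6% of its 196.6 kb, more than in 98.9% of protein-coding genes of 100 kb or more. SMARCC2 had 9 peaks over 85.5% of its 27.1 kb, among them peaks of 5.70 and 5.59 kb. Per length of gene with its flanks, this was 3.44 peaks per 10 kb for SMARCC1 and 2.42 for SMARCC2.

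The alternative ATPases SMARCA4 (BRG1) and SMARCA2 (BRM), of which a SWI/SNF complex carries either, lay far apart. SMARCA4 had 33 peaks over 59.4% of its 101.2 kb, including a peak of 10.9 kb (chr19:11011215-11022111, log2 ratio 3.79). SMARCA2 had 6 peaks, the widest 755 bp, over 2.08% of its 178.3 kb. The density was 2.97 against 0.32 peaks per 10 kb. Protein-coding genes of 100 kb or more had a median coverage of 0.616%. SMARCA4 lay above 99.4% of them and SMARCA2 above 71.4%. They also differed at the first listed start, which had a peak in SMARCA4 (chr19:10960123-10961736, log2 ratio 2.47). The other listed start of SMARCA4 had none, with the nearest peak edge 1831 bp away. No peak lay over any of the 4 listed starts of SMARCA2, whose nearest peak edge lay 1889 bp from the first start. The 250 bases before each first start are shown, 5′ to 3′ on the gene's strand, from RefSeq GRCh38.p14, with CG dinucleotides in capitals, because both genes start in CG-rich sequence while only SMARCA4 had a peak there.
SMARCA4 (chr19:10960780-10961029, + strand): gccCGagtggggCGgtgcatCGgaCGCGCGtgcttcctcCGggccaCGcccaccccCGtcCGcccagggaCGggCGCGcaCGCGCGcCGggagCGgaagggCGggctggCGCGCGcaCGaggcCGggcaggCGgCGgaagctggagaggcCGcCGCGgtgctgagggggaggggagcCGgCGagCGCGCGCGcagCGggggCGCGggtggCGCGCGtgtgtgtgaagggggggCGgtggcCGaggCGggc
SMARCA2 (chr9:2015097-2015346, + strand): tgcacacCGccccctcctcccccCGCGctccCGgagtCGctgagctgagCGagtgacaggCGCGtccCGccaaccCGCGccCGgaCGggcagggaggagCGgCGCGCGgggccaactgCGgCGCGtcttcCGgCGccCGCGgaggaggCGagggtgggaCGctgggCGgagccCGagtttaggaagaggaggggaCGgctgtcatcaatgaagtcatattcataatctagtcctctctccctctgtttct
The stretch before SMARCA4 holds 44 CG dinucleotides and that before SMARCA2 holds 29.

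The alternative ARID subunits of the BAF complex also differed in coverage, though their genes are of very unlike length. ARID1A, a frequently mutated tumour suppressor, had 24 peaks over 42.1% of 86.1 kb, the widest of 6.90 kb (chr1:26734099-26741000, log2 ratio 3.15). ARID1B had 17 peaks over 3.06% of 434.8 kb, the longest member, and ARID2, the PBAF counterpart, 3 peaks over 0.48% of 178.3 kb. PBRM1, the polybromo subunit of PBAF, had 45 peaks and 32.9% of its span covered. The 3 PBAF-specific genes, PBRM1, BRD7 and ARID2, thus spread from 32.9 to 0.48%.

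Among the accessory SMARCD paralogs, SMARCD1 (53.2% of 15.4 kb) and SMARCD2 (48.6% of 10.6 kb) were close to each other, and SMARCD3 had 8.85% of 38.4 kb. The strongest SWI/SNF peak lay in SMARCD1 (chr12:50094303-50094897, log2 ratio 5.86). The core subunit SMARCB1, lost in rhabdoid tumours, had 11 peaks over 17.7%. SMARCE1, which carries an HMG domain, had a single peak, over its start (chr17:40647057-40648880, log2 ratio 2.85), and 3.33% of its span covered.

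**Figure D2:**
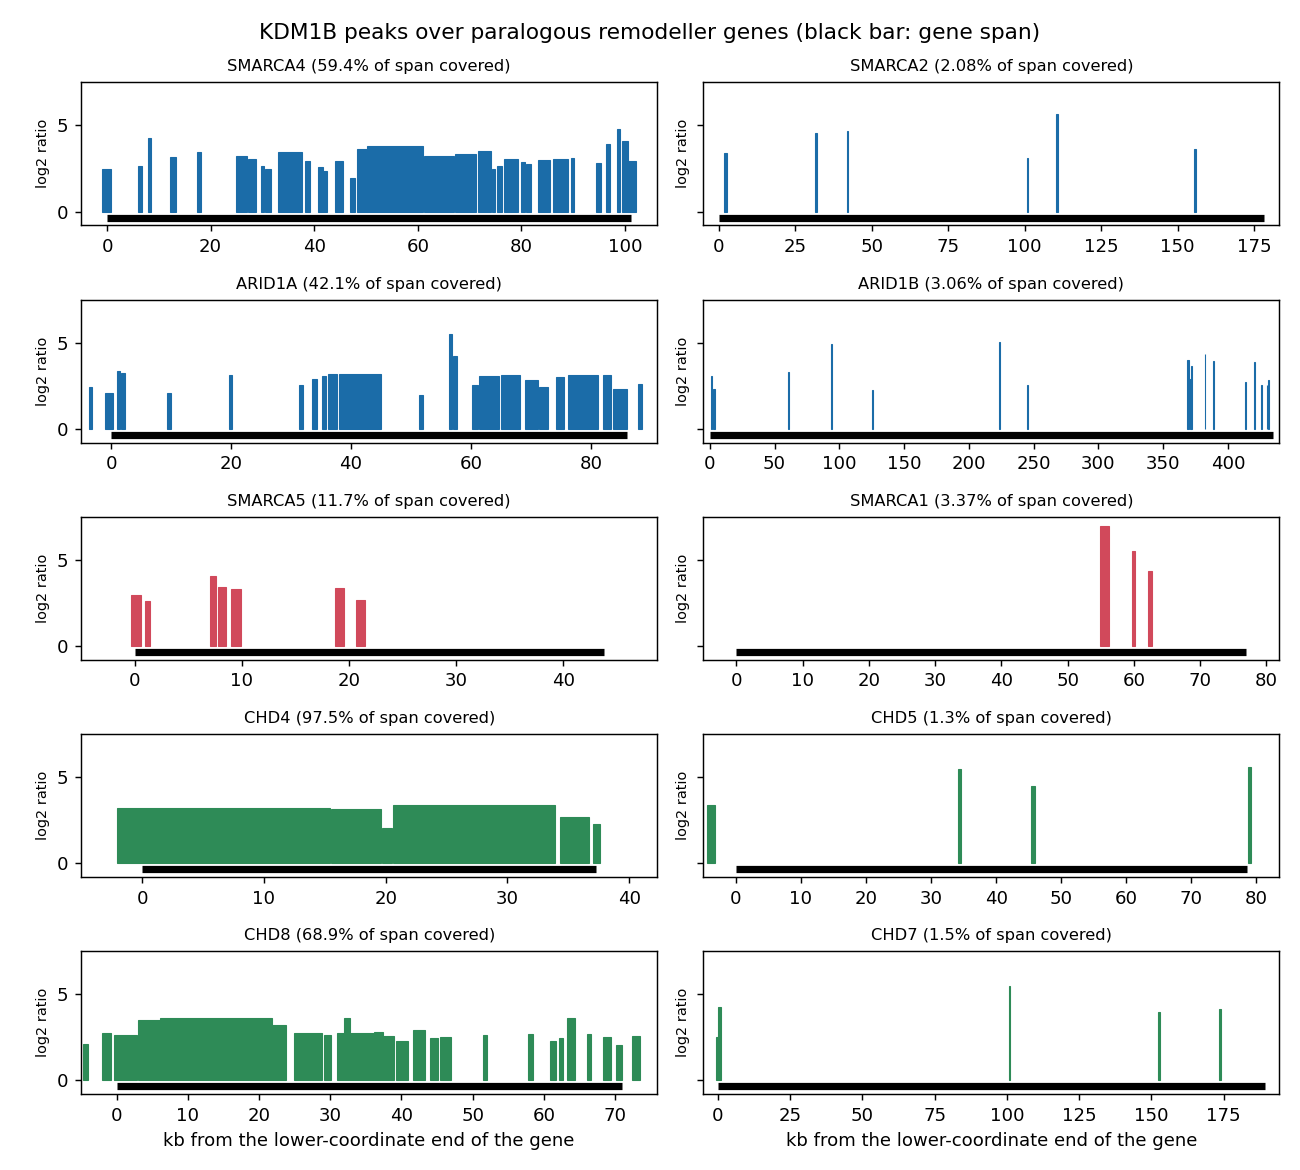
Peaks over 5 pairs of related genes, as boxes from peak start to peak end (x axis, kb from the lower-coordinate end of the gene) with the authors' log2 ratio as height, and the gene span as a black bar. Long runs of peaks lie over much of SMARCA4, CHD4 and CHD8, and over ARID1A mainly toward the end of transcription. ARID1A also holds a peak of 500 bp at a log2 ratio of 5.49. SMARCA2, ARID1B, CHD5 and CHD7 hold isolated narrow peaks.

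All 3 ISWI genes had peaks and none reached 25% coverage. BPTF, the large histone-reading subunit of the NURF complex, had 22 peaks over 13.1% of 158.9 kb. The ATPase genes differed in number of peaks: SMARCA5 (SNF2H) had 7 over 11.7% of 43.8 kb, and SMARCA1 (SNF2L), on chromosome X, had 3 over 3.37% of 77.0 kb. Chromosome X had the lowest share of protein-coding genes with a peak, 37.0%. In SMARCA5 the midpoint of the last peak lay 21.1 kb inside the gene, and no further peak followed. The midpoints of the 3 peaks of SMARCA1 lay between 14.5 and 21.4 kb from its start, and one of them had the highest log2 ratio of any member, 6.99 (chrX:129501396-129502804).

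The 9 CHD genes all had peaks and spanned a wide range of coverage, from 97.5 to 1.30% with a median of 16.1%. CHD4, the main ATPase of NuRD, was covered almost from end to end by 6 peaks. Peaks of 17.4 kb (chr12:6568036-6585477, log2 ratio 3.22), 4.13 kb and 13.3 kb (chr12:6590658-6604007, log2 ratio 3.38) followed each other closely, and the first ran 2046 bp beyond the lower end, where it overlapped NOP2. Its coverage was above that of 99.9% of protein-coding genes of 30 to 100 kb. The other NuRD ATPases fell on either side: CHD3 had 15 peaks over 54.4% of 28.0 kb, and CHD5, known as a neuronal gene and tumour suppressor, had 4 over 1.30% of 78.5 kb. Of the 4 peaks near CHD5 only 2 lay inside it, and the others also lay in or within 5 kb of KCNAB2 and RPL22. The latter of these was the strongest CHD peak (chr1:6180478-6180991, log2 ratio 5.57).

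CHD8 and CHD7, related ATPases known from autism and CHARGE syndrome, differed similarly. CHD8 had 26 peaks over 68.9% of 70.9 kb, the widest of 15.7 kb (chr14:21391323-21407032, log2 ratio 3.60), and CHD7 had 5 over 1.50% of 189.3 kb. CHD9 had 22 peaks over 7.31% of 272.5 kb and CHD6 had 11 over 3.23% of 216.3 kb, so CHD8 was the only gene of these 4 above 10% coverage.

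CHD1 and CHD2, the founding pair of the family, lay in the middle of the range. CHD2 had 36 peaks, the most of the CHD genes, over 29.7% of 127.7 kb, and CHD1 had 11 over 16.1% of 75.0 kb. CHD2 had a peak over its first listed start (chr15:92899889-92900682, log2 ratio 2.68) and CHD1 had none, its nearest peak edge lying 385 bp away. The 250 bases before the starts of CHD1, CHD2 and CHD4 are shown in the same format, because the CG content and the peak ran opposite ways in CHD1 and CHD2.
CHD1 (chr5:98929008-98929257, - strand): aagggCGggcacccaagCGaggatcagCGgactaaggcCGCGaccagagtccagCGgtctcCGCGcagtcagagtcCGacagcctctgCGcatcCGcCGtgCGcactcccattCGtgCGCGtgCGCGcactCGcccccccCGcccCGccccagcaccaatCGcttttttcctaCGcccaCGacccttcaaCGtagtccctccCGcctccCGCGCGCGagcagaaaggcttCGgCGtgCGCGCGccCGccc
CHD2 (chr15:92900074-92900323, + strand): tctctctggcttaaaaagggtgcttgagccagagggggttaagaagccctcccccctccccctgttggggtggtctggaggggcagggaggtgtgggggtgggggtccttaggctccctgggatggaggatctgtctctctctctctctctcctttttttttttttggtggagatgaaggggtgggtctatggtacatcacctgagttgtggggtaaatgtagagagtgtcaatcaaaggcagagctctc
CHD4 (chr12:6606452-6606701, - strand): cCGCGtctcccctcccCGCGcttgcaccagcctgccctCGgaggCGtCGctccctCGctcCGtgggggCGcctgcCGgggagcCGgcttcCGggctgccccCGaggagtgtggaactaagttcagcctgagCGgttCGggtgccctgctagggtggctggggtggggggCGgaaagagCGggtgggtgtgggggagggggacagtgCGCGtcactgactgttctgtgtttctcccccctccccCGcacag
CHD1 has 36 CG dinucleotides in this stretch and no peak over the start, CHD2 has 0 and a peak, and CHD4 has 21 and a peak (chr12:6604371-6606771, log2 ratio 2.68). The listed start of CHD4 lies 928 bp inside its gene span, so the bases shown for it lie within the annotated gene.

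Of the 7 genes of the INO80 group 6 had a peak, and the median coverage was 27.2%. The largest values belonged to the ATPases that work in the exchange of histone variants. SRCAP had 12 peaks over 90.7% of 42.2 kb, the widest of 10.2 kb (chr16:30700658-30710905, log2 ratio 3.68), and EP400 had 37 over 61.2% of 130.5 kb, with peaks of 11.2, 9.14 and 8.63 kb. The ATPase gene INO80 had 41 peaks over 35.7% of 137.4 kb and the strongest peak of this group (chr15:41052120-41052952, log2 ratio 4.95). The smaller subunits lay lower. INO80B, a gene of 2.86 kb, had 27.2% covered with 3 peaks and INO80E, of 9.55 kb, had 18.6% with 5. All 8 of these peaks also lay within 5 kb of other coding genes, WBP1 or MOGS for INO80B, and TAOK2, HIRIP3 or DOC2A for INO80E. INO80D had 5 peaks over 5.48% of 92.5 kb. INO80C, on chromosome 18, had none, and the nearest peak edge lay 158963 bp from its start.

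Outside these 4 groups HELLS was the only member covered over 25% or more of its span. HELLS, an ATPase known for its part in DNA methylation, had 22 peaks over 55.3% of 68.1 kb, while the 50 kb on either side of it were covered over 3.74%. Its strongest peak (log2 ratio 4.05) was also the strongest of these 4 ATPase genes. SMARCAD1, with a role in the repair of DNA ends, had 10 peaks over 11.0% of 83.7 kb. SMARCAL1, which remodels stalled replication forks, had 6 over 4.14% of 70.6 kb. ATRX, a heterochromatin remodeller on chromosome X, had 3 over 0.86% of 281.3 kb. Of the 7 other ARID genes, 5 had peaks and none exceeded 13.2% coverage, reached by ARID3B with 10 peaks and the strongest log2 ratio of these genes, 3.94. ARID4A (11 peaks, 11.3%) and ARID4B (15 peaks, 7.16%), both linked to the SIN3 corepressor, and ARID3A (4 peaks, 7.62%) lay below it. ARID5B had 2 peaks over 0.74% of 195.2 kb, and ARID5A and ARID3C had none. The peak nearest to the first start of ARID5A lay 58.3 kb away, and that nearest to ARID3C 17.3 kb away.

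The 4 families were compared by density, the summed peaks over the summed length of the genes with 5 kb on each side. It was 2.0 peaks per 10 kb in the INO80 group (exact Poisson 95% interval 1.63 to 2.43, counting error only), 1.48 in SWI/SNF (1.31 to 1.68), 1.15 in CHD (0.96 to 1.36) and 1.03 in ISWI (0.71 to 1.46), against 0.54 over all protein-coding genes. The order did not hold by every measure. By median coverage SWI/SNF came first (32.9%), then INO80 (27.2%), CHD (16.1%) and ISWI (11.7%). With only peaks at or above the median log2 ratio INO80 (14.5%) came before SWI/SNF (13.7%), with CHD (9.14%) and ISWI (4.46%) after them. The families also differed in length, with median spans of 53.0 kb in SWI/SNF, 77.0 in ISWI, 78.5 in CHD and 42.2 in INO80. The coverage of each gene by the full list was therefore ranked among protein-coding genes of its length class. The median member lay above 89.5% of them in SWI/SNF, 86.9% in CHD, 82.6% in INO80 and 71.5% in ISWI, with CHD before INO80. When peaks within 1 kb of each other were joined, the densities of INO80 (0.84 per 10 kb), SWI/SNF and ISWI (both 0.81) were nearly the same, with 0.68 in CHD and 0.35 over all protein-coding genes, so that ISWI was no longer last. In SWI/SNF and CHD the genes of a family differed far more than the families did, from 0.16 to 3.44 and from 0.25 to 3.95 peaks per 10 kb. In ISWI the 3 genes ran from 0.34 to 1.30. The ranges of coverage of SWI/SNF, CHD and INO80 overlapped almost entirely. Neighbouring peaks in a gene are not independent, so the intervals are too narrow for a comparison of families, and the differences between families were not tested.

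**Figure D3:**
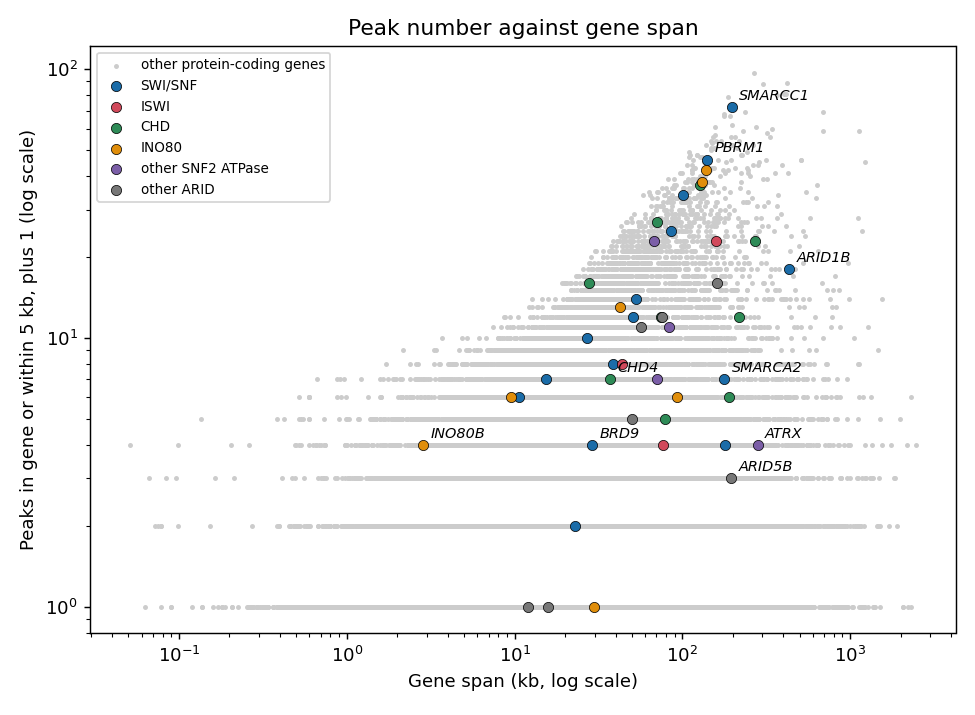
Number of peaks in the gene or within 5 kb, plus 1, against gene span in kb (both axes logarithmic) for all protein-coding genes (grey) and the members (coloured by group). SMARCC1 with 71 peaks lies near the upper edge of the cloud, and ATRX and ARID5B, with 3 and 2 peaks, lie near the median of 2 peaks for protein-coding genes of 100 kb or more.

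Of the 42 members with a peak 33 had more of their span covered than of the 50 kb on either side, against 58.4% of the protein-coding genes with a peak. The medians were 13.3% inside and 8.13% outside in these members, and 6.83 and 5.83% in the protein-coding genes. CHD2 had 29.7% inside against 1.69% outside and INO80 35.7% against 6.10%. CHD4 (97.5 against 50.3%) and CHD8 (68.9 against 39.3%) lay in surroundings that were themselves much covered. ARID4A (11.3 against 38.9%), ARID4B (7.16 against 35.2%) and CHD5 (1.30 against 30.2%) were less covered than their surroundings. Other genes lie in these flanks and were not removed. Of the 13485 protein-coding genes with a peak, 11626 had a peak midpoint inside the gene, against 41 of the 42 members. Under 10 kb were 2865 of the 13485 and 2 of the 42, and length was not matched in this comparison.

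Peaks over the start of transcription were counted in a smaller region and in fewer members than peaks in or near the gene. The counts of members are therefore not comparable between them. A RefSeq window from 250 bases before to 50 after the start was listed for 35 members, and the first in the direction of transcription was used. It was listed more than 3 kb inside the gene span in CHD8, CHD3 and ARID3C. No window was matched for SMARCC1, SMARCC2, ARID2, BPTF, CHD5, CHD6, CHD7, ATRX, ARID3A and ARID3B. A peak overlapped this window in 17 of 35 members (48.6%, Clopper-Pearson 95% interval 31.4 to 66.0%), against 31.2% of protein-coding genes with a window. With any listed start counted it was 20 of 35 members, against 5443 of 15812 protein-coding genes. By group the first window had a peak in 6 of 12 in SWI/SNF, 1 of 2 in ISWI, 3 of 6 in CHD and 5 of 7 in the INO80 group. It had one in 1 of 3 among the other ATPases and 1 of 5 among the other ARID genes. The peaks over the first window were weak. All but INO80D (log2 ratio 3.21) and SMARCD2 (3.52) lay below the median of the list, so that with only peaks at or above the median the count fell to 2 of 35, against 7.40% of protein-coding genes. Dense coverage of the gene did not require a peak at the start. SRCAP, with 90.7% covered, had its nearest peak edge 610 bp from the start, SMARCD1 1417 bp, and PBRM1 956 bp from its first start.

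The number of CG dinucleotides in the window was much the same in members with a peak over the start and those without. The median number of CG dinucleotides in the 300 bases was 28 in the 17 members with a peak and 29.5 in the 18 without. Over all protein-coding genes the medians were 29 and 16. The GC box GGGCGG was found on either strand in 13 of 17 members with a peak (76.5%) and 13 of 18 without (72.2%). Over protein-coding windows it was 76.4% with a peak and 50.1% without, 58.3% in all. The ETS-type motif CCGGAAG, searched on both strands, was found in 5 of 17 members with a peak (BRD9, CHD4, EP400, INO80B and INO80E) and in 1 of 18 without (SMARCA2). Over all protein-coding windows its share was 22.5% with a peak and 10.3% without, 14.1% in all. These matches describe the letters only.

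Coverage was on average higher in the part of the gene nearest the end of transcription than in that at the start. Over the 30 members of 10 kb or more with a peak and a listed strand, each gene was divided into 5 equal parts. Mean coverage was 24.4% in part 1, at the start, and 30.0, 34.0, 32.8 and 38.0% in the following parts. Over 8712 protein-coding genes chosen in the same way it went from 13.1% to 13.9, 16.4, 17.9 and 18.1%. The medians of these genes did not rise in this way, with 5.17% in part 1 and 0, 1.31, 2.62 and 3.42% after it, while those of the members were 16.0, 15.5, 20.1, 18.9 and 27.0%. Part 5 was covered further than part 1 in 20 of the 30 members, against 43.8% of these protein-coding genes, and part 1 further than part 5 in the other 10, against 39.9%. Both parts were equally covered in 16.3% of the protein-coding genes and in none of the 30 members. EP400 was among the clearest cases, with 9.95% of part 1 and 93.2 and 81.1% of parts 4 and 5 covered. ARID1A went from 12.1% to 80.6% and CHD2 from 4.12% to 50.6%. HELLS ran the other way, from 71.7% in part 1 to 28.8% in part 5, and PBRM1 from 41.8% to 18.7%. In SMARCA5 parts 4 and 5 had no peak.

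**Figure D4:**
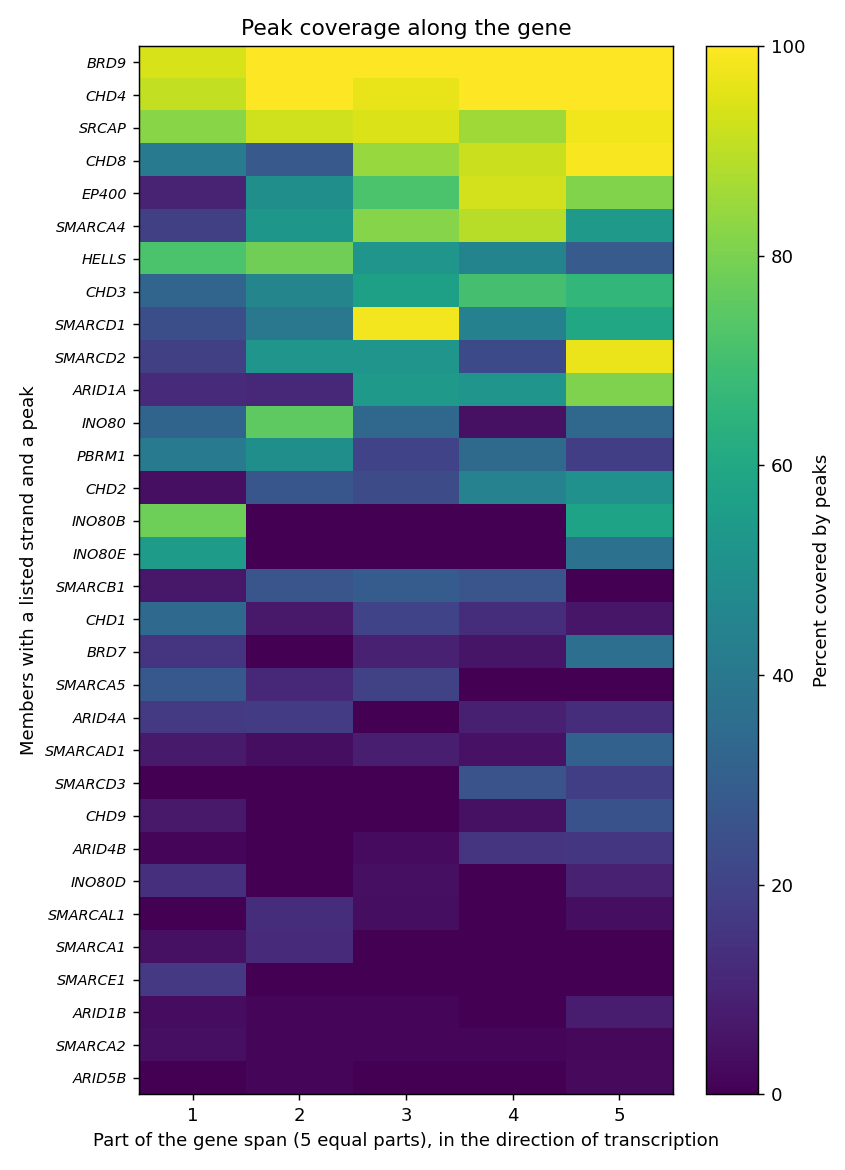
Percent of each of 5 equal parts of the gene span covered by peaks (colour, 0 to 100%), from part 1 to part 5 in the direction of transcription, for members with a peak and a listed strand, ordered by coverage of the whole span. EP400, ARID1A and CHD2 are covered further in part 5 than in part 1, and HELLS and PBRM1 less.

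The ratios of the members' peaks were near those of the whole list. The median log2 ratio was 2.91 (quartiles 2.63 and 3.35) in the 608 peaks of members and 2.99 (2.58 and 3.52) in all 78536 peaks. Median peak widths were 940 and 804 bp, and 15 of the 608 peaks (2.47%) were 5 kb or wider against 1.42% of the list. The group medians lay between 2.83 in CHD and 3.03 in INO80. The strongest peak of a member reached a log2 ratio of 5 or more in 10 genes, whose median coverage was 3.21%, against 17.3% in the other 32 with a peak. The same count over all protein-coding genes was not made, so it is unknown whether the members differ in this. SMARCD1 (5.86, 53.2% covered) and ARID1A (5.49, 42.1%) were densely covered genes among the 10. Of these 10 peaks 9 were at most 1 kb wide, and the median width of the list, 804 bp, also lay under 1 kb. In 9 of the 10 the linear ratio was also a whole multiple of a step common to the list, 2.64, chosen on its strongest peaks, as was that of 12.4% of the list, and the input reads behind these ratios are unknown. The wider peak was that of SMARCA1 (1408 bp), and the ratio that was no whole multiple was that of ARID1B (5.05). The 15 peaks of 5 kb or wider had log2 ratios between 2.92 and 3.86.

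**Figure D5:**
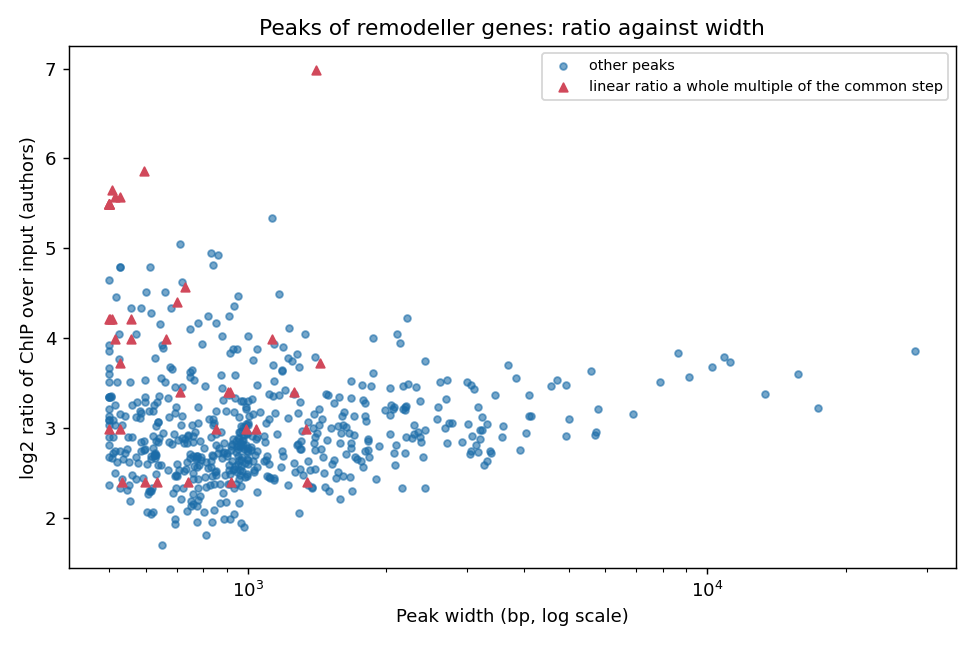
Log2 ratio of ChIP over input (the authors' value) against peak width in bp (logarithmic axis) for the 608 peaks of members. Triangles mark the 39 peaks whose linear ratio is a whole multiple of the common step, which make up 11 of the 13 peaks at a log2 ratio of 5 or more, and the 15 peaks of 5 kb or wider lie between 2.92 and 3.86. How many peaks of the whole list reach a log2 ratio of 5 was not counted.

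Further subunits of the same complexes, a list of 58 genes outside the naming rule, also spread widely in coverage, from 0 to 92.3%. Of these 55 had a peak (94.8%, against the 67.5% of protein-coding genes), the median coverage was 16.1% against 1.52%, and 25 of 58 reached 25% of the span, against 16.8%. Their median span was 38.4 kb against 24.2 kb, which gives more room for a peak, and length was not matched here. By complex a peak was found near 14 of 15 SWI/SNF, 9 of 10 ISWI, 8 of 9 NuRD and 24 of 24 INO80, SRCAP and EP400 subunits. Each gene was counted under a single complex, also where complexes share it, with RBBP4 and RBBP7 under ISWI. The order of the families was not that of the members. Median coverage was 12.9% in SWI/SNF, 20.9% in ISWI, 23.2% in NuRD and 28.2% in INO80. Density in that order was 0.91, 1.01, 1.03 and 1.53 peaks per 10 kb. The first start window had a peak in 8 of 14, 5 of 8, 5 of 9 and 6 of 20, against 31.2% of protein-coding genes. TRRAP, the large scaffold of the EP400 complex, had 44 peaks over 71.7% of 134.7 kb, and RUVBL1, an AAA ATPase shared by INO80 complexes, had 16 over 26.9%. The strongest peaks of that group were near ZNHIT1 (6.10) and TFPT (5.65). Among ISWI partners BAZ1B had 34 peaks over 56.2% and BAZ1A 28 over 20.4%, and the strongest peaks were near RBBP7 (6.49), a histone chaperone, and BAZ1B (5.72). In NuRD GATAD2A had 22 peaks and HDAC1 16, over 23.2 and 41.3%, and the strongest peaks were near GATAD2B (5.57), MBD2 and HDAC1 (both 4.34). For SWI/SNF BICRA had 19 peaks over 13.5% and BCL7A 16 over 28.7%, with the strongest peaks near BCL11B (5.65) and PHF10 (5.57). The ratios of 5.65 and 5.57 are also those of peaks of SMARCA2 and SMARCB1 that were whole multiples of the common step. Whole multiples were not counted for the further subunits, and the input reads behind their ratios are unknown. Those without a peak were ACTL6B, the neuronal actin-like subunit, POLE3 and HDAC2. The deacetylase paralogs HDAC1 and HDAC2 thus stood at 16 and 0 peaks, and the actin-like subunits ACTL6A and ACTL6B at 5 and 0.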

How the data were processed

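Chromatin of MDA-MB-231 cells was precipitated with an antibody to the FLAG tag, and an input library served as control, 1 library in each of the 2 groups. Trim Galore 0.4.5, Bowtie2 2.2.9 and hg38 are named in the submitters' processing notes, with peak caller, thresholds and joining not given in the sources used here. No library of untagged cells was analysed here. For every peak the authors deposited a position and a log2 ratio (ChIP over input), used only to describe and rank peaks. That the unit is log2 was settled from the values, since the linear ratios of the strongest peaks are whole multiples of a common step of 2.64 (tolerance 1e-06). Coordinates are printed as deposited, and whether they begin at 0 or 1 is unknown.

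Gene spans, strands and start windows came from RefSeq tables of GRCh38.p14. Python 3.11.15 with numpy 2.4.6, pandas 2.3.3 and scipy 1.17.1 was used. Coverage is the share of the span under any part of a peak. Length classes were under 10, 10 to 30, 30 to 100 and 100 kb or more. The counting was tested on simulated data. Members, groups and lists were chosen with earlier results of these data known. In each group the genes with the most peaks, the highest coverage and the strongest peak, and every gene without a peak, were named, and other members are named to account for all. Of the further subunits, the 2 with the most and the 2 with the strongest peaks per group were named, all genes without a peak, and ACTL6A, chosen after its values were seen. The start sequences and the paralog pairs shown were also chosen after their values were seen.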

Additional observations from a re-analysis of the deposited data

How the results depend on the processing

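No paired analysis was possible because each group held 1 library, and no replicate could be left out. Of 87 alternative values 71 stayed within 1.5 times the reported value (counts and medians) or within its Poisson interval (densities), and 16 did not. The count of members with a peak and that of further subunits stayed within 1.5 times under all 6 alternatives. With only peaks at or above the median log2 ratio, median coverage fell to 4.46% over all members and to 13.7% in SWI/SNF, 4.46% in ISWI, 9.14% in CHD and 14.5% in INO80, 9 members reached 25% of the span and 2 had a peak over the start. Density then was 0.55 peaks per 10 kb over all members, 0.65 in SWI/SNF, 0.45 in ISWI, 0.49 in CHD and 1.07 in INO80, against 0.26 over all protein-coding genes. With peaks within 1 kb joined it was 0.71 over all members, 0.81 in SWI/SNF and in ISWI, 0.68 in CHD and 0.84 in INO80, which leaves CHD last in place of ISWI. Fewer peaks enter both counts by construction. The counts behind the ratios are unknown, so their counting error cannot be given.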

Other observations

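Genes of different remodelling complexes lay near each other in some regions, and 2 such pairs are described here. No distance limit was set, and the pairs are not a complete list. On chromosome 7 BAZ1B (chr7:73440406-73522293), an ISWI partner, and BCL7B (chr7:73536356-73557690), a SWI/SNF subunit, were both densely covered, with 56.2 and 45.5% of their spans under peaks. On chromosome 16 SRCAP (chr16:30699171-30741409) and the SWI/SNF subunit gene BCL7C (chr16:30833626-30894077), farther apart, differed, with 90.7 and 4.10% covered. These pairs were chosen after their values were seen.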
